A study of Mus musculus with 15 samples.

Results

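The 10 genes described here, Tdrd1, Tdrd3, Tdrd5, Tdrd6, Tdrd7, Tdrd9, Tdrd12, Tdrkh, Stk31 and Rnf17, encode Tudor domain proteins that are studied for their roles in germ cells. They were chosen by symbol, with earlier results of these data known, and their identifiers were looked up in the deposited count tables. All 10 were found among 50051 features counted in the RNA-seq libraries and among 49585 genes counted in the small RNA libraries. All 10 had enough reads to be tested in RNA-seq, and 6 of 10 in small RNA.

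The libraries were made from testes of B6D2F1 mice at postnatal day 28, in which a chromosome 18 locus that makes pachytene piRNAs was intact (+/+, wild type), absent from 1 chromosome (+/-, heterozygous) or absent from both (-/-, homozygous). RNA-seq of ribosome-depleted total RNA covered 3 libraries of each genotype, and small RNA sequencing covered 3 heterozygous and 3 homozygous libraries. RNA for the small RNA libraries was first oxidised with periodate, so that mainly RNAs with methylated 3′ ends, which include piRNAs, could be sequenced. No wild-type small RNA library was analysed here, no group carried another allele or treatment in the labels, and whether each library stands for its own animal is not given, so the spread that p-values rest on is that between libraries, which may be technical.

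A Tudor domain is a small fold that binds methylated arginine or lysine in other proteins. PIWI proteins, which carry piRNAs, have methylated arginines near their amino terminus, and Tudor proteins bind them there and gather them into the granules of germ cells: the intermitochondrial cement of spermatocytes and the chromatoid body of round spermatids. Loss of single members of this family in mice is known to stop sperm formation at stages that range from meiosis to spermatid elongation, with or without activation of transposons.

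The RNA-seq libraries held 21684791 to 41513634 counted fragments, and the small RNA libraries 939641 to 1861402 counted reads. The precursor transcript that marks the deleted locus gave 5609 to 9595 fragments in the wild-type libraries, 3983 to 8948 in the heterozygous ones and 3 to 6 in the homozygous ones, as the labels state. RNA-seq fragments were counted over whole gene bodies, introns included. Levels are given as CPM (the usual depth-scaled read count, here after TMM scaling), and where genes are compared with each other, as CPM per kilobase of annotated exon. Because intronic fragments enter the count and introns do not enter that length, a gene with long introns can be overstated on this scale.

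In wild-type testis the 10 genes spanned a wide range, with Tdrd6 at the top and, per exon kilobase, Tdrkh at the bottom. Tdrd6, which encodes a scaffold of the chromatoid body, stood at 123 ± 15.4 CPM per exon kilobase (SD, n = 3). Tdrd7, the product of which is needed to build the chromatoid body and is also known in the lens, stood at 76.6 ± 7.19, and Rnf17, a Tudor protein with a RING finger that forms granules of its own, at 66.6 ± 0.637. Stk31, which joins a Tudor domain to a kinase-like domain, followed at 47.2 ± 0.630. Tdrd1, a partner of PIWIL2 (MILI) in intermitochondrial cement, stood at 34.5 ± 3.11. The helicase-domain genes Tdrd9 and Tdrd12, which act with PIWIL4 and PIWIL2 in fetal transposon silencing, stood at 29.4 ± 0.989 and 26.9 ± 1.02 CPM per exon kilobase. Tdrd5, a further component of germ cell granules, stood at 18.3 ± 1.05. Tdrd3, which is expressed in many tissues and acts with the topoisomerase TOP3B, stood at 10.6 ± 0.459. Tdrkh, which is anchored in the outer mitochondrial membrane where piRNA 3′ ends are trimmed, stood at 4.17 ± 0.187. No 2 neighbours in this order overlapped over the 3 wild-type libraries, and the closest, Tdrd9 and Tdrd12, differed by a ratio of 1.09. Counted per kilobase of gene body instead, Tdrd6 and Tdrd7 remained the first 2 and Tdrd3 and Tdrkh the last 2. Tdrd5 moved from rank 8 to 5 and Tdrd1 from rank 5 to 3. Rnf17 moved from rank 3 to 4, Stk31 from 4 to 6 and Tdrd9 from 6 to 8. Tdrkh shares 4886 bases, 22.8% of its body, with Gm42463 on the same strand, and fragments that fell on both genes were not counted for either. Those bases hold 0 of the 6142 exon bases of Tdrkh, so the fragments left out there are ones that touch its introns, and their number is not known. Per kilobase of the body outside Gm42463, Tdrkh stood at 1.55 CPM instead of 1.20 and kept rank 9. Among 15824 protein-coding genes tested, the mean level over the 9 RNA-seq libraries put Tdrd6 at percentile 97.7 and Tdrkh at percentile 52.2.

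The gene structures differ as much as the levels. The files place Tdrd6 on chromosome 17 at 43615335 to 43630299 (minus strand, mm10), a body of 14965 bases with 5 merged exons, of which the longest has 6193 bases and makes up 87.7% of the exon length. Rnf17 lies on chromosome 14 at 56402697 to 56525032 (plus strand) with 37 merged exons in 122336 bases, and Tdrd9 on chromosome 12 at 111971559 to 112068854 (plus strand) also with 37. Tdrd1 lies on chromosome 19 at 56826209 to 56870012 (plus strand) with 27 exons, Tdrd12 on chromosome 7 at 35469098 to 35537745 (minus strand) with 32, and Stk31 on chromosome 6 at 49395604 to 49469501 (plus strand) with 24. Tdrd7 lies on chromosome 4 at 45965334 to 46034761 (plus strand), Tdrd5 on chromosome 1 at 156255296 to 156303664 (minus strand), Tdrd3 on chromosome 14 at 87416639 to 87545373 (plus strand) and Tdrkh on chromosome 3 at 94413273 to 94434668 (plus strand).

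The promoters of 4 genes that passed the test against wild type below are shown because they share or lack short motifs of factors known in meiotic cells. Each window is 300 bases, from 250 before to 50 after the transcription start, taken from RefSeq (GRCm38.p6): chr19:56825959-56826258 (plus strand) for Tdrd1, chr12:111971309-111971608 (plus strand) for Tdrd9, chr7:35537695-35537994 (minus strand) for Tdrd12 and chr6:49395354-49395653 (plus strand) for Stk31. Capitals mark the palindrome CACGTG, an E-box, and CAACNG on either strand, one of the forms bound by MYB proteins such as A-MYB, the regulator of pachytene piRNA genes.
Tdrd1: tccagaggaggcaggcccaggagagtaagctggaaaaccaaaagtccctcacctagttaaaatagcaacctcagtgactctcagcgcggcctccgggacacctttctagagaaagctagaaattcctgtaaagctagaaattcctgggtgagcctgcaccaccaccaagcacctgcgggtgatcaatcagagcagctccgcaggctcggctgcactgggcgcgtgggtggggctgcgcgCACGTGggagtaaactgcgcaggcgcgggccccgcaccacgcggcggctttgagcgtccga
Tdrd9: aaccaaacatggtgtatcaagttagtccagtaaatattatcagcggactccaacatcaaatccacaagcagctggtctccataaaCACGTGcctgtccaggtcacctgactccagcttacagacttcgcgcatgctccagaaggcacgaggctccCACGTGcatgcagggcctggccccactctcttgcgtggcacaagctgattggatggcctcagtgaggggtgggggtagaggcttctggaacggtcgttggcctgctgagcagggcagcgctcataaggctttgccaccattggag
Tdrd12: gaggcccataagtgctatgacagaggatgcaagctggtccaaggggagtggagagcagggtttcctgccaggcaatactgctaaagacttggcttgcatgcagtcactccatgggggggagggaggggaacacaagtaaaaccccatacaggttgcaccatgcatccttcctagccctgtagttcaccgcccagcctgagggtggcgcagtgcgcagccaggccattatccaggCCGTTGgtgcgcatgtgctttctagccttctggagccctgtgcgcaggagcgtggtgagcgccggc
Stk31: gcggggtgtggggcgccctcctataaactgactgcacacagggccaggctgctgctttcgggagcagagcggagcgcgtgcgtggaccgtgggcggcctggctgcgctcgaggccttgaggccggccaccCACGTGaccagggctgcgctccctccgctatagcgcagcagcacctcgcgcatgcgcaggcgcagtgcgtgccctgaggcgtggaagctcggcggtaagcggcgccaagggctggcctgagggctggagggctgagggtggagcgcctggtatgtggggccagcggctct
Windows were found for 8 of 10 genes, all but Tdrd6 and Rnf17. Where a gene had more than 1 window, only that with its start nearest the gene start was used. CACGTG occurred in 3 of 8 (Tdrd1, Tdrd9, which has 2 copies, and Stk31) against 7.15% of 32817 windows of this length, and this motif was chosen after the sequences had been seen. The MYB forms TAACNG and CAACNG, searched on both strands, each occurred in 3 of 8 windows against 23.3% and 35% of all windows. The cyclic AMP response half-site TGACGT occurred in 0 of 8 against 7.51%. Tdrd12 held 1 CAACNG match and no CACGTG, and Tdrd1, Stk31 and Tdrd9 held no MYB form in these windows. A second Tdrd12 window, with its start 30 bases from the gene start, also held 1 TAACNG match, so the counts depend on the window used. The window of Stk31 held 28 CpG, that of Tdrd1 20, that of Tdrd9 10 and that of Tdrd12 9, where the median of all windows is 7. CACGTG itself holds a CpG, and the windows it was set against were not matched for CpG. A match describes letters only.

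Against wild type, 5 of 10 genes were higher in homozygous testis: Stk31, Tdrd12, Tdrd1, Tdrd9 and Rnf17, by 1.19-fold to 1.28-fold, and none of the 10 was lower. A gene was called at an edgeR quasi-likelihood p under 0.05 after Benjamini-Hochberg adjustment over all 20782 features tested, and 20.8% of those features were called, 9.68% higher and 11.1% lower. In heterozygous testis, 4 of 10 were higher (Stk31, Tdrd12, Tdrd9 and Rnf17) and none was lower, where 23.9% of all features were called, 11.1% higher and 12.9% lower. With no scaling beyond library size, the features called numbered 2225 higher and 1688 lower in homozygotes, against 2012 and 2307 here, and 3175 higher and 1575 lower in heterozygotes, against 2302 and 2675. Both comparisons share the same 3 wild-type libraries, so they are not independent. In whole testis, fewer cells of a type and less RNA per cell cannot be told apart. The median log2 fold change over the 10 genes was 0.25 in homozygotes and 0.21 in heterozygotes, where the median over all features was -0.01 and -0.00.

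**Figure D1:**
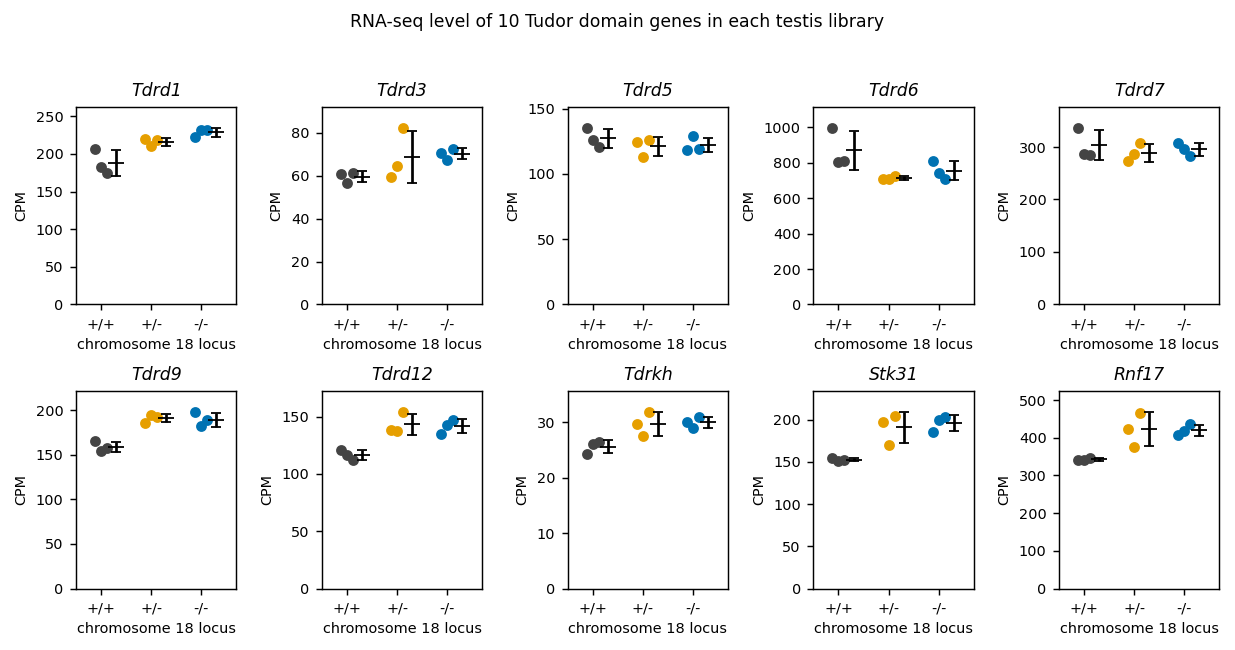
RNA-seq level (CPM, linear axis from 0) of each of the 10 genes in every library, by genotype of the chromosome 18 locus; points are libraries and the bar beside them is the mean with SD (n = 3). Stk31, Tdrd9, Tdrd12, Rnf17, Tdrd1 and Tdrkh sit higher in all +/- and -/- libraries than in any +/+ library, and Tdrd6 sits lower in all 3 +/- libraries.

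Stk31, with its kinase-like domain, was higher than in wild type in both comparisons. Its level was 155, 151 and 153 CPM in the wild-type libraries, 197, 170 and 205 in the heterozygous ones and 185, 200 and 203 in the homozygous ones. All 6 libraries with a deleted copy lay above the 3 wild-type ones. The log2 fold change was 0.36 ± 0.09 (SE, edgeR adjusted p = 0.0178) in homozygotes and 0.32 ± 0.09 (edgeR adjusted p = 0.0253) in heterozygotes. Fragments on the opposite strand of the Stk31 body amounted to 7.50 to 20.3% of its count, and with both strands summed the log2 fold changes were 0.39 in each comparison. Rnf17 had the same pattern, with 341, 341 and 347 CPM in wild-type, 425, 377 and 467 in heterozygous and 408, 417 and 436 in homozygous libraries. Here too no library of either mutant group reached down to the wild-type range. Its log2 fold change was 0.29 ± 0.09 (edgeR adjusted p = 0.0441) in homozygotes and 0.30 ± 0.09 (edgeR adjusted p = 0.0358) in heterozygotes.

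The helicase-domain genes Tdrd9 and Tdrd12 were each higher in both comparisons with wild type. Tdrd9 stood at 165, 155 and 157 CPM in wild-type, 186, 195 and 192 in heterozygous and 198, 182 and 189 in homozygous libraries. Tdrd12 stood at 121, 117 and 112 CPM in wild-type, 138, 137 and 154 in heterozygous and 135, 143 and 147 in homozygous libraries. For both genes the wild-type libraries formed the lower group with no overlap. Tdrd9 rose by 0.25 ± 0.08 on the log2 scale in homozygotes (edgeR adjusted p = 0.0406) and by 0.26 ± 0.08 in heterozygotes (edgeR adjusted p = 0.0317). Tdrd12 rose by 0.28 ± 0.08 in homozygotes (edgeR adjusted p = 0.0362) and by 0.29 ± 0.08 in heterozygotes (edgeR adjusted p = 0.0266).

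Tdrd1, the PIWIL2 partner, passed the test in homozygotes and not in heterozygotes. Its level was 207, 183 and 174 CPM in wild-type, 220, 210 and 218 in heterozygous and 222, 231 and 232 in homozygous libraries. The groups did not overlap in either comparison with wild type, although wild-type library 1 lay close to the lowest heterozygous library. The log2 fold change was 0.28 ± 0.09 in homozygotes (edgeR adjusted p = 0.0399) and 0.20 ± 0.09 in heterozygotes (95% interval 0.01 to 0.39, edgeR adjusted p = 0.115). Without wild-type library 1 the heterozygous value was 0.28 (edgeR adjusted p = 0.0397), and with no scaling beyond library size it was 0.30 (edgeR adjusted p = 0.0144), over a range of 0.15 to 0.30 in all alternatives run. The homozygous libraries were also above the heterozygous ones, by 0.08 on the log2 scale with an interval of -0.11 to 0.27, so the 2 comparisons were not shown to differ.

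Tdrd5, Tdrd6 and Tdrd7 were not called in either direction by edgeR. Tdrd6, the most abundant member, was 995, 804 and 811 CPM in wild-type, 707, 707 and 726 in heterozygous and 813, 743 and 710 in homozygous libraries. All heterozygous libraries lay below all wild-type ones, while homozygous library 1 lay within the wild-type range. The log2 fold change of Tdrd6 was -0.29 ± 0.11 in heterozygotes (95% interval -0.52 to -0.06, edgeR adjusted p = 0.0661), and DESeq2 gave an adjusted p of 0.0311 for it. In homozygotes it was -0.20 ± 0.11 (interval -0.43 to 0.02, edgeR adjusted p = 0.185). Both values rest in part on wild-type library 1, the highest of the 9: without it Tdrd6 was -0.17 in heterozygotes (edgeR adjusted p = 0.197) and -0.09 in homozygotes (edgeR adjusted p = 0.489). Tdrd7 was 336, 288 and 286 CPM in wild-type, 273, 286 and 307 in heterozygous and 308, 297 and 283 in homozygous libraries, and the 3 groups overlapped. Its log2 fold change was -0.03 in homozygotes (interval -0.24 to 0.17) and -0.07 in heterozygotes (interval -0.27 to 0.14). Tdrd5 was 135, 126 and 120 CPM in wild-type, 124, 113 and 126 in heterozygous and 118, 129 and 119 in homozygous libraries. Its groups overlapped, with log2 fold changes of -0.06 (interval -0.25 to 0.13) and -0.07 (interval -0.26 to 0.12).

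Tdrd3, the member expressed in many tissues, gave 60.9, 56.6 and 61.2 CPM in wild-type, 59.5, 64.5 and 82.2 in heterozygous and 70.8, 67.4 and 72.4 in homozygous libraries. The homozygous libraries lay above the wild-type ones and the heterozygous ones overlapped them, with library 3 far above the other 2. Neither difference passed, with a log2 fold change of 0.24 ± 0.11 in homozygotes (interval -0.01 to 0.48, edgeR adjusted p = 0.153) and 0.20 ± 0.11 in heterozygotes (interval -0.04 to 0.45, edgeR adjusted p = 0.204). Without heterozygous library 3 the heterozygous value of Tdrd3 was 0.06 (edgeR adjusted p = 0.713). With only the 2 groups compared in the fit, the homozygous value of Tdrd3 was 0.26 (edgeR adjusted p = 0.0378), where the other alternatives gave adjusted p of up to 0.336.

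Counted over the 10 genes, 7 lay higher in every homozygous than in every wild-type library, and none lower, where 42.6% of all features did not overlap, 20.6% higher and 22% lower. For heterozygotes 6 lay higher and 1, Tdrd6, lower, where 42.1% of all features did not overlap, 20.5% higher and 21.6% lower. The estimate was above 0 for 7 of 10 in each comparison, where 48.5% of all features were above 0 in homozygotes and 49.8% in heterozygotes. At an unadjusted p under 0.05, edgeR counted 6 of 10 in homozygotes, where 35.7% of all features passed, and 7 of 10 in heterozygotes, where 37.8% passed. DESeq2 called 5 of 10 in each comparison, Tdrd6 among them in heterozygotes, where it called 22.8% and 26.3% of all features. With no filter on low counts 1 of 10 was called in homozygotes, and with only the 2 groups compared in the fit 2 of 10 were called in heterozygotes. The number called also rests on single libraries. In homozygotes it was 0 without wild-type library 2, wild-type library 3, homozygous library 2 or homozygous library 3, and 2 without homozygous library 1. In heterozygotes it was 0 without wild-type library 2, wild-type library 3 or heterozygous library 3, and 2 without heterozygous library 1. The fold changes kept their sign in each of these fits for the 5 genes called in homozygotes, with a lowest log2 value of 0.22 for Tdrd9. The libraries of a genotype were not equally alike. Chi-square per degree of freedom between their counts was 3.12 for wild-type libraries 2 and 3, and 47.6 and 50.7 for library 1 with each of them. The other RNA-seq pairs of 1 genotype lay between 12.1 and 42.6. The part of this in the number called was not tested.

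**Figure D2:**
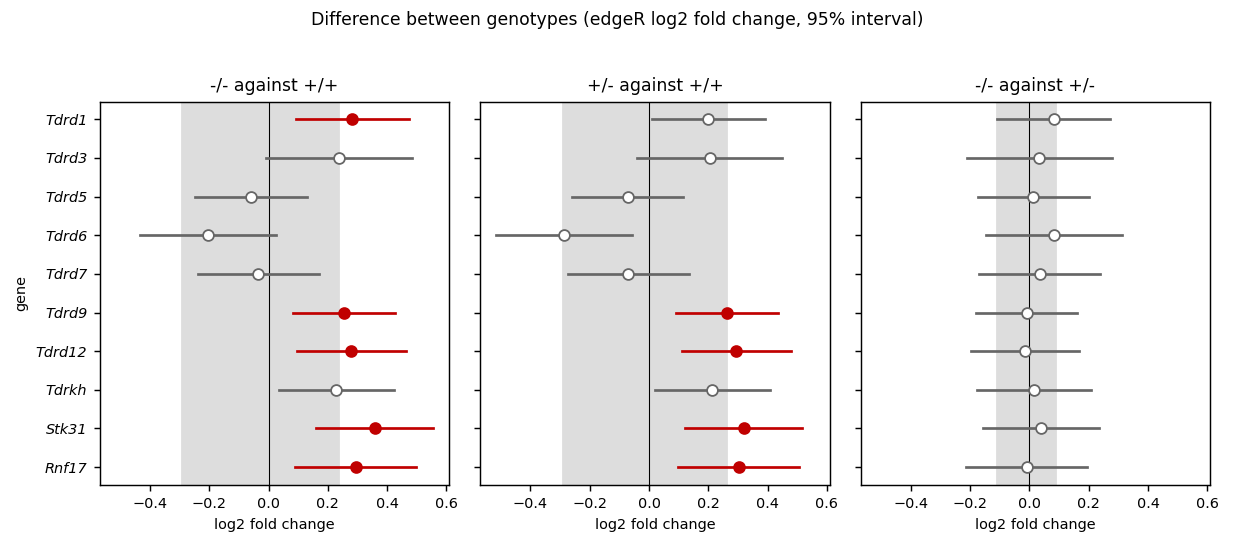
Log2 fold change (edgeR) of each gene in the 3 comparisons, with its 95% interval; filled red marks an adjusted p under 0.05, and the grey band spans the 25th to 75th percentile of all 20782 features. In -/- against +/- all 10 values sit between -0.01 and 0.08, while 7 of 10 are above 0 in each comparison with +/+.

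Homozygous and heterozygous testes differed little in these genes. None of the 10 was called (0 at an unadjusted p under 0.05 by edgeR, and 0 by DESeq2), where edgeR called 0.0289% of all features, 3.07% had an unadjusted p under 0.05 and DESeq2 called 0.0798%. The log2 fold changes ran from -0.01 (Tdrd12) to 0.08 (Tdrd6 and Tdrd1), with a median of 0.02 against 0.01 over all features. Their 95% intervals lay between -0.21 and 0.31, with the upper bound from Tdrd6. Tdrd1 was the 1 gene of 10 whose libraries did not overlap, at 210 to 220 CPM in heterozygotes and 222 to 232 in homozygotes, where 8.31% of all features did not overlap.

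The order of the family per exon kilobase differed between genotypes at 1 place. Rnf17 stood below Tdrd7 per exon kilobase in all 3 wild-type libraries, at ratios of 0.781, 0.911 and 0.933. It stood above Tdrd7 in all 6 others, at 1.19, 1.01 and 1.17 in the heterozygous libraries and 1.02, 1.08 and 1.18 in the homozygous ones. Per kilobase of gene body Rnf17 stayed below Tdrd7 in all 9 libraries, at ratios of 0.576 to 0.689 in wild type, 0.747 to 0.882 in heterozygotes and 0.752 to 0.874 in homozygotes, so the crossing is found on the exon scale only. On the exon scale the order of the other 8 genes was the same in all 9 libraries. Tdrd6 made up 35.8 to 39.2% of the CPM summed over the 10 genes in wild type, 28.9 to 30.9% in heterozygotes and 29.3 to 32.7% in homozygotes, so its share was lower in all 6 libraries with a deleted copy. The sum itself overlapped between genotypes, at 2246 to 2540 CPM in wild type, against 2287 to 2509 in heterozygotes and 2423 to 2487 in homozygotes.

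The body of Tdrkh also overlaps Oaz3, the gene of an ornithine decarboxylase antizyme of haploid spermatids, on the opposite strand over 2255 bases, 10.5% of the body. Oaz3 was 1539, 1317 and 1275 CPM in wild-type, 335, 837 and 672 in heterozygous and 601, 710 and 713 in homozygous libraries, so it was lower in all 6 libraries with a deleted copy. The log2 fold change of Oaz3 was -1.03 ± 0.24 in homozygotes (edgeR adjusted p = 0.0137) and -1.16 ± 0.25 in heterozygotes (edgeR adjusted p = 0.00797).

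Tdrkh itself was 24.3, 26.0 and 26.5 CPM in wild-type, 29.7, 27.5 and 31.8 in heterozygous and 30.0, 28.9 and 31.0 in homozygous libraries. The wild-type libraries were the lowest of all 9, but neither difference passed, with log2 fold changes of 0.23 ± 0.09 (edgeR adjusted p = 0.0866) and 0.21 ± 0.09 (edgeR adjusted p = 0.0983). Fragments on the strand of Tdrkh within the whole body of Oaz3 equalled 25.9 to 47.2% of the Tdrkh count and 0.745 to 3.56% of the Oaz3 count. In wild-type library 1, Oaz3 had 49927 fragments on its own strand, where the opposite strand of the Tdrkh body had 13959. Fragments in the Oaz3 body can thus fall outside what was counted for Tdrkh. How many of those on the Tdrkh strand did so is not known. Taking all of them off the Tdrkh count left 12.8, 15.2 and 16.2 CPM in wild-type, 17.8, 19.6 and 23.5 in heterozygous and 21.9, 19.1 and 20.9 in homozygous libraries. This step was chosen after the data had been seen and can remove fragments never counted for Tdrkh. After it the log2 fold change of Tdrkh was 0.49 ± 0.13 in homozygotes (edgeR adjusted p = 0.0207) and 0.46 ± 0.13 in heterozygotes (edgeR adjusted p = 0.0232), with 6 and 5 of 10 called. With both strands summed, Tdrkh was -0.85 and -0.93. The opposite strand of the Tdrkh body carried 373 to 1771% of the Tdrkh count, and which gene those fragments come from was not tested.

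**Figure D3:**
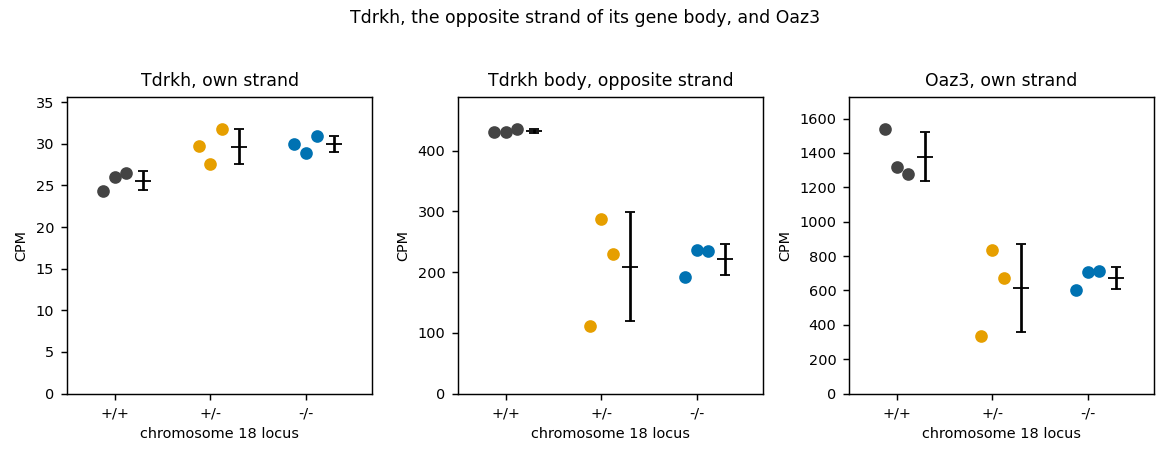
CPM of Tdrkh on its own strand, of the opposite strand of the Tdrkh body, and of Oaz3 on its own strand, in each library by genotype (linear axes from 0, mean with SD beside the points, n = 3). The opposite strand is at 430 to 436 CPM in +/+, 111 to 288 in +/- and 192 to 236 in -/-, and both it and Oaz3 are highest in +/+, while Tdrkh itself is lowest there.

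Markers of germ cell stages were set beside the same comparisons. Of all features, 9.68% were called higher and 11.1% lower in homozygotes against wild type. In heterozygotes these shares were 11.1% and 12.9%. Of 15 genes of early meiotic prophase, 10 were higher in homozygotes and none was lower, and 10 were higher and 1 lower in heterozygotes, with median log2 fold changes of 0.50 and 0.42. Their summed level was 2571 to 2648 CPM in wild type, against 3002 to 3637 in heterozygotes and 3292 to 3574 in homozygotes. Sycp3, of the synaptonemal complex, rose by 0.81 on the log2 scale in homozygotes and 0.69 in heterozygotes (edgeR adjusted p = 0.00242 and 0.00509), and Meiob, of meiotic recombination, by 0.76 and 0.79 (edgeR adjusted p = 0.00129 and 0.00112). The sum of these markers was lowest in the 3 wild-type libraries. Their part in the values of the Tudor genes was not tested.

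Of 15 elongating spermatid genes, 7 were lower in homozygotes and 8 in heterozygotes and none was higher; Oaz3 is 1 of them. Their sum was 18414 to 19112 CPM in wild type, 10543 to 13627 in homozygotes, and 15295 and 13540 in heterozygous libraries 2 and 3 but 6478 in heterozygous library 1. Of 15 round spermatid genes, 1 was higher and 1 lower in homozygotes, and 1 higher and 3 lower in heterozygotes, with sums of 2794 to 3152 CPM in wild type, against 2215 to 2775 in heterozygotes and 2586 to 2765 in homozygotes. Of 14 pachytene genes tested, 2 were lower in homozygotes (Ybx2, an RNA-binding protein, at -0.65, and Spag6 at -0.39) and 4 in heterozygotes, and none was higher. Pou5f2 of that list had no fragment in any library, and its body lies wholly within Fam172a on the same strand, where fragments shared by 2 features were not counted. Their sum was 6817 to 6962 CPM in wild type, against 6034 to 6192 in heterozygotes and 6095 to 6451 in homozygotes. Of 13 spermatogonial genes tested, 2 were higher and 1 lower in homozygotes and 1 higher and 1 lower in heterozygotes, with sums of 198 to 234 CPM in wild type, against 187 to 200.2 in heterozygotes and 194 to 208 in homozygotes. The part of these cells in the values of the Tudor genes was not tested. Among all features, 9.68% were called higher and 11.1% lower in homozygotes, and 11.1% and 12.9% in heterozygotes.

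Markers of 4 somatic cell types were compared in the same way. The shares of all features were again 9.68% higher and 11.1% lower in homozygotes, and 11.1% and 12.9% in heterozygotes. Of 10 Leydig cell genes tested, 8 were lower in each comparison with wild type and none was higher, with sums of 1274 to 1406 CPM in wild type, against 582 to 753 in heterozygotes and 538 to 720 in homozygotes. Insl3 of that list had no fragment in any library, and its body lies wholly within Jak3. Of 13 Sertoli cell genes tested, 1 was higher in homozygotes and 4 in heterozygotes, and none was lower, with sums of 1293 to 1328 CPM in wild type, against 1160.3 to 1260 in heterozygotes and 1212 to 1375 in homozygotes. Of 8 peritubular genes, 2 were lower in homozygotes and 1 in heterozygotes, with sums of 442 to 471, 347 to 385 and 370 to 410 CPM in wild type, homozygotes and heterozygotes. Of 9 macrophage genes 1 was higher and 2 were lower in each comparison, with sums of 325 to 366, 271 to 313 and 279 to 332 CPM in the same order. Between homozygotes and heterozygotes no gene of any of these 9 marker lists was called by edgeR.

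**Figure D4:**
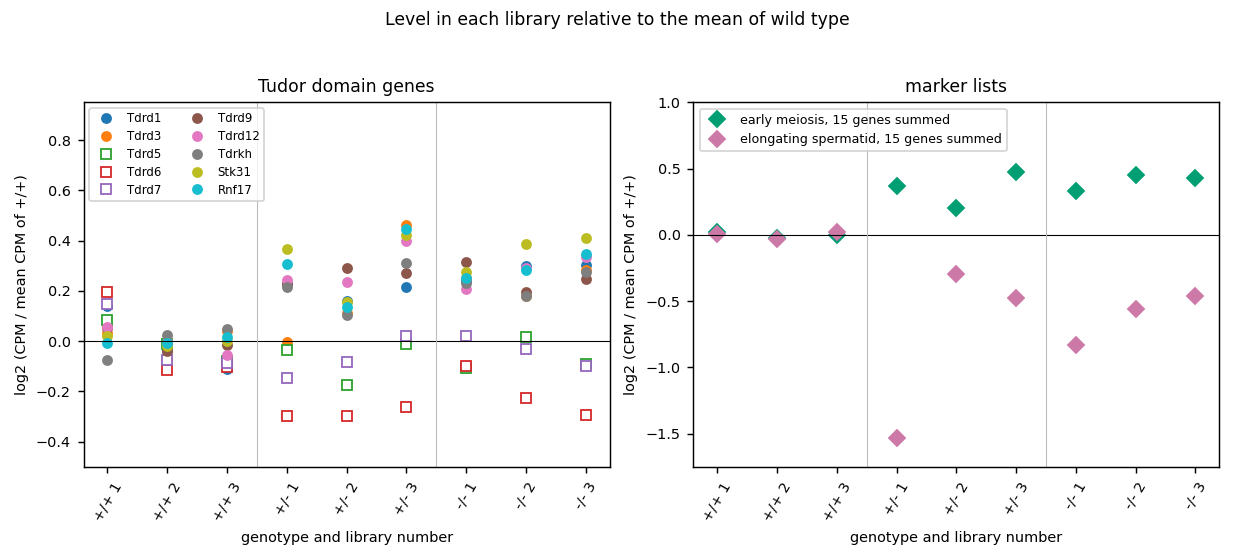
Log2 ratio of the CPM in each library to the wild-type mean, for the 10 Tudor genes (left; open squares are Tdrd5, Tdrd6 and Tdrd7) and for the summed CPM of 2 marker lists (right). Tdrd6 and the elongating spermatid sum are below 0 in all 6 +/- and -/- libraries, and the early meiosis sum is above 0 in all 6.

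Genes that act beside these proteins were compared in the same fits. These called 9.68% of all features higher and 11.1% lower in homozygotes against wild type, and 11.1% and 12.9% in heterozygotes. Of 22 other Tudor domain genes, 20 were found and 19 tested. Of the 19, 5 were higher and none lower in homozygotes, 7 were higher and 1 lower in heterozygotes, and none was called between homozygotes and heterozygotes, with medians of 0.10, 0.09 and -0.02. The 4 with the lowest p against wild type were the same genes in both comparisons. Phf20l1, a reader of methylated lysine, rose by 0.54 on the log2 scale in homozygotes and by 0.58 in heterozygotes (edgeR adjusted p = 0.00550 and 0.00395). Mtf2, a Polycomb accessory protein, rose by 0.50 and 0.52, Snd1, a nuclease with a Tudor domain, by 0.33 and 0.44, and Kdm4c, a histone demethylase, by 0.39 and 0.45.

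Of 21 piRNA pathway partners tested, 2 were higher in homozygotes: Asz1, a mitochondrial partner of the intermitochondrial cement, by 0.38 on the log2 scale (edgeR adjusted p = 0.0352) and Mybl1, which encodes A-MYB, by 0.33 (edgeR adjusted p = 0.0399). In heterozygotes Asz1 was higher by 0.53 (edgeR adjusted p = 0.00898) and Prmt5 was lower by -0.50 (edgeR adjusted p = 0.0240). None was called between homozygotes and heterozygotes, and the medians against wild type were 0.02 and -0.08. Against wild type, 9.68% of all features were called higher and 11.1% lower in homozygotes, and 11.1% and 12.9% in heterozygotes. PRMT5 makes the symmetrically methylated arginines that Tudor domains bind. Of 11 tested genes for arginine methyltransferases and their cofactors, none was called in homozygotes, and 2, Prmt7 at -0.37 and Prmt5 at -0.50, were lower in heterozygotes (edgeR adjusted p = 0.0229 and 0.0240). In homozygotes Prmt5 was -0.32 ± 0.14 (edgeR adjusted p = 0.118).

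Over the 9 RNA-seq libraries, the levels of the 10 genes followed each other to different degrees, given here as a description because the libraries share depth and genotype. Pearson's r of log2 CPM over the 45 pairs had a median of 0.59 and ran from -0.75 for Tdrd6 with Tdrkh to 0.98 for Stk31 with Rnf17, and 11 pairs were above 0.8. All 11 were among Tdrd1, Tdrd9, Tdrd12, Tdrkh, Stk31 and Rnf17. Tdrd6 and Tdrd7 had an r of 0.78 with each other. After the genotype means were removed the median was 0.42, with Stk31 and Rnf17 at 0.93 and Tdrd6 and Tdrd7 at 0.90. Tdrkh with Rnf17 went from 0.96 to 0.84, Tdrd12 with Stk31 from 0.94 to 0.72 and Tdrd12 with Rnf17 from 0.94 to 0.71. Some other pairs did not stay high. Tdrd9 with Tdrd12 went from 0.87 to -0.03, Tdrd9 with Stk31 from 0.80 to -0.40 and Tdrd1 with Tdrd9 from 0.83 to 0.21. Among 17465 features with a mean of at least 1 CPM, the pattern most like Stk31 over the 9 libraries was that of Eif2a, at r = 0.996, that most like Rnf17 was Mkks at 0.991, that most like Tdrd12 was Dtl at 0.991, that most like Tdrd9 was Hal at 0.979 and that most like Tdrd6 was Kctd19 at 0.990.

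The small RNA libraries counted reads on the sense strand of exons, and they covered heterozygotes and homozygotes only. Per exon kilobase and over all 6 libraries, Tdrd1 had the most, at a mean of 10.7 small RNA CPM, followed by Tdrkh at 8.01 and Tdrd12 at 4.51, while the other 7 lay between 0.631 (Tdrd3) and 2.46 (Tdrd6 and Stk31). Among 21734 protein-coding genes, with a median of 0.120, Tdrd1 stood at percentile 96.8 and Tdrkh at 95.7. The order differs from that of RNA-seq: Tdrkh was last of the 10 there and second here, at a ratio of 1.73 small RNA to RNA-seq CPM per kilobase, where Tdrd7 had 0.0177. The ratio sets the mean of the 6 small RNA libraries against that of all 9 RNA-seq libraries, wild type included. Its RNA-seq value includes intronic fragments, but lacks those that Tdrkh shares with Gm42463. The reads behind these values are few, with 48 to 100 a library for Tdrd1, 27 to 96 for Tdrkh and 3 to 6 for Tdrd3, and lengths of the reads were not used here.

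**Figure D5:**
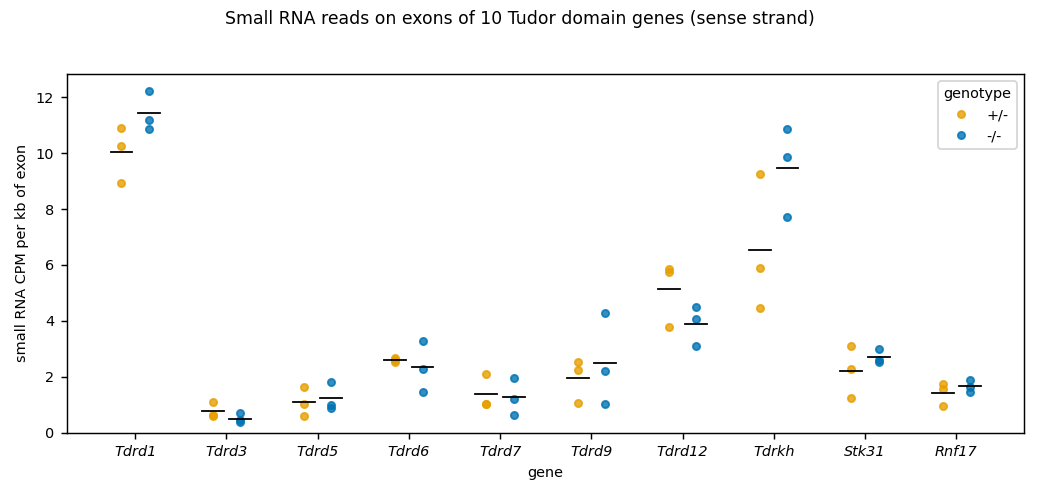
Small RNA reads on the exons of each gene, as CPM per kilobase of exon (linear axis from 0), in the 3 +/- and 3 -/- libraries; points are libraries and lines are means. Tdrd1 and Tdrkh have the highest means, and for every gene the points of both genotypes overlap.

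None of the 6 genes tested in small RNA was called between homozygotes and heterozygotes by edgeR (0 at an unadjusted p under 0.05) or by DESeq2. Of all 3581 genes tested by edgeR, 0.0279% were called and 8.71% had an unadjusted p under 0.05, and DESeq2 called 0.00539% of those it tested. The groups overlapped for all 10 genes, where 15.9% of the genes tested did not overlap. Tdrd1 gave 59.3, 48.7 and 55.8 small RNA CPM in heterozygotes and 59.2, 60.9 and 66.6 in homozygotes. Its log2 fold change was 0.18, with an interval of -0.21 to 0.58. Tdrkh gave 57.0, 27.4 and 36.1 CPM in heterozygotes and 60.6, 66.9 and 47.3 in homozygotes, so that heterozygous library 1 lay within the homozygous range and the other heterozygous libraries below it. Its log2 fold change was 0.52 ± 0.28 (interval -0.13 to 1.16, edgeR adjusted p = 0.608). Without heterozygous library 1 it was 0.87 (edgeR adjusted p = 0.00986), in a fit that called 617 genes where the fit of all 6 libraries called 1. Tdrd12 gave 24.9, 25.4 and 16.4 CPM in heterozygotes and 17.7, 19.5 and 13.5 in homozygotes, which overlap, with a log2 fold change of -0.39 (interval -0.99 to 0.22). For Tdrd6, Tdrd9 and Stk31 the log2 fold changes were -0.18, 0.27 and 0.21, and their intervals ran from -0.94 to 1.48 at the widest. Tdrd3, Tdrd5, Tdrd7 and Rnf17 had 3 to 19 reads a library and did not pass the filter. With no filter in edgeR and with DESeq2 all 10 genes were tested and 0 were called.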

How the data were processed

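RNA-seq and small RNA libraries of mouse testis were compared by genotype, as given in the sample titles. The files the authors deposited hold raw counts for each feature, without normalization. Per the file headers, featureCounts (1.6.1 and 1.6.2) counted RNA-seq fragments over whole gene bodies, leaving out a fragment that fell in more than 1 feature of its strand, and small RNA reads over exons on the sense strand. Counts of the reverse strand, which this kit reads, were used, and the opposite strand (8.81 to 10.7% of it) served as a check. The submitters' processing notes name cutadapt 1.18, HISAT2 2.1.0, Bowtie2 2.2.5, Salmon 0.11.3 and DESeq2 1.20.0, and both mm10 and mm9, with no role for any of them. Coordinates are those of the mm10 annotation in the files, and protein-coding status came from GENCODE. Symbols were matched for 49326 of 49585 gene identifiers, and for 176 of 178 listed genes (not Tdrd10 and Tdrd15).

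The tests used edgeR 4.0.16 with limma 3.58.1 in R 4.3.3. After the filterByExpr filter on low counts, 20782 RNA-seq features and 3581 small RNA genes remained. Libraries were scaled by TMM, and all libraries of an assay entered 1 quasi-likelihood fit of group means. A gene was called at a Benjamini-Hochberg adjusted p under 0.05 over all features tested. Intervals are 95% intervals of the log2 fold change. On simulated counts the fits recovered 92% (homozygous against heterozygous, 20665 genes), 90% (homozygous against wild type, 20656 genes) and 79% (small RNA, 3622 genes) of genes changed by a log2 of 1. False calls numbered 8, 6 and 9. The simulated counts had the same spread for every gene and no outlying library. They do not show how often differences as small as those of the 10 genes against wild type, at most 0.36 in the main fit, are found.

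All 10 genes were named in every comparison. From the lists of other Tudor genes, piRNA pathway partners, arginine methyltransferases and cell types (spermatogonia, early meiosis, pachytene, round and elongating spermatids, Sertoli, Leydig, peritubular and macrophage), up to 4 genes with the lowest p could be named. The genes and lists were chosen with earlier results of these data known. For likeness of pattern, features with a mean of at least 1 CPM were ranked by Pearson's r of log2 CPM with a prior count of 2. Alternatives were DESeq2 1.42.0, RLE scaling, library size alone as scaling, all features kept and a minimum mean of 1 CPM. Others were the sum of both strands, fits of only the groups compared, each library left out and a replicate block in small RNA. The last, chosen after the data were seen, took the fragments on the Tdrkh strand in the whole Oaz3 body off the Tdrkh count. The numbers of the RNA-seq libraries come from sample order, so they pair no libraries.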

Additional observations from a re-analysis of the deposited data

Results flagged for a closer look

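Reads on the strand opposite to a gene were not used in the main comparisons. For some of the 10 genes, every library of a mutant group lay on 1 side of all wild-type libraries in these reads. Stk31 in heterozygotes and Tdrd1 in homozygotes lay above, Tdrd3 and Tdrkh lay below in both groups, and Tdrd7 lay below in homozygotes. Over all 20782 features, the opposite strand lay above for 8.27% and below for 12% in heterozygotes, and above for 6.85% and below for 13.3% in homozygotes. These levels were scaled by the library sizes of the reverse strand used in the main comparisons. The opposite strand amounted to 9.98 to 10.7% of its total in wild type, 9.43 to 9.92% in heterozygotes and 8.81 to 9.85% in homozygotes. On the opposite strand of the Stk31 body the heterozygous libraries had a mean of 33.9 CPM (30.0 to 37.2), where the wild-type libraries had 11.6 to 23.5 and the homozygous ones 23.4 to 33.9. The annotated antisense neighbour there, Gm17060, overlaps 824 bases of the Stk31 body and had 5 to 23 fragments a library on its own strand in wild type and heterozygotes. On the opposite strand of Tdrd1 the homozygous libraries had a mean of 0.475 CPM (0.390 to 0.616), where the wild-type libraries had 0.277 to 0.369. These are 11 to 16 fragments a library in homozygotes and 8 to 10 in wild type. None of these differences was tested.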

How the results depend on the processing

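The 5 genes called in homozygotes and the 4 called in heterozygotes against wild type stayed above 0 in every alternative run, with log2 values from 0.22 to 0.42, but their calls did not all hold. The homozygous count of 5 was 1 with no filter and 0 to 5 with 1 library left out. The heterozygous count of 4 was 2 with only the groups compared and 0 to 4 with 1 library left out. Between homozygotes and heterozygotes the count was 0 in all 17 alternatives. In small RNA the count of 0 was 0 to 1 with 1 library left out, and 0 with a replicate block. Same-numbered small RNA libraries did not deviate together (r of -0.155, 0.003 and -0.088), so the numbers are not taken to pair them.

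With both strands summed Tdrkh was -0.85 in homozygotes and -0.93 in heterozygotes against wild type, and between homozygotes and heterozygotes Stk31 was -0.00288 and Tdrd5 -0.000655. With no scaling, which moves the median of all features to 0.10 in heterozygotes against wild type and the calls from 2302 higher and 2675 lower to 3175 and 1575 (homozygotes against wild type from 2012 and 2307 to 2225 and 1688), Tdrd5 and Tdrd7 were 0.029 and 0.034 in heterozygotes and Tdrd7 was 0.019 in homozygotes. Between homozygotes and heterozygotes without scaling, Stk31 was -0.012, Tdrd3 -0.014, Tdrd5 -0.038, Tdrd7 -0.015 and Tdrkh -0.035, and DESeq2 gave Rnf17 0.000619. With 1 library left out, the values between homozygotes and heterozygotes ran from -0.085 to 0.069 for Rnf17, -0.037 to 0.092 for Stk31, -0.054 to 0.040 for Tdrd12, -0.062 to 0.18 for Tdrd3, -0.035 to 0.043 for Tdrd5, -0.00353 to 0.081 for Tdrd7, -0.042 to 0.018 for Tdrd9 and -0.035 to 0.066 for Tdrkh. Tdrd7 ran from -0.12 to 0.016 in heterozygotes and -0.078 to 0.047 in homozygotes against wild type. In small RNA Stk31 ran from -0.032 to 0.27, Tdrd6 from -0.50 to 0.098 and Tdrd9 from -0.35 to 0.70. The cause of these moves was not tested. Few small RNA reads a gene limit that assay, where the log2 interval of Tdrd9 reaches from -0.94 to 1.48.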
